A study of Mus musculus with 3 samples.

Results

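Ly86, Ms4a6c, Lgals3, Psap, F13a1, Ccr2, Cx3cr1 and Prdx4 were followed through the monocyte branch of mouse bone marrow progenitors. These 8 genes, of 28692 gene IDs in the count table, were chosen from their levels in the authors' clusters, by the order in which they appear over MDP, MP, Mono and cMoP and by their levels in DC, IG2 and Gran-1. The clusters were made from the same RNA. All levels and folds between clusters are therefore a description, with no test.

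The cells were wild-type C57BL/6 progenitors, named modified GMP by the submitters (GMP is the usual short form of granulocyte-monocyte progenitor), from hindlimb marrow enriched on CD117 beads and sorted by flow cytometry. Transcripts and 4 antibody tags were read in the same cells by CITE-seq on the 10x Genomics 3' v2 assay, with 1 female and 1 male mRNA library and 1 antibody library that pooled both sexes. The libraries held 4336 female and 6796 male cells with 91448433 and 124967351 unique transcript counts (UMIs). The labels do not say how many mice gave each library, so the 2 values of a gene show the spread between libraries, which may be technical and which holds the sex difference too.

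Monocytes arise in marrow from progenitors shared with dendritic cells and granulocytes, under the transcription factors PU.1 and IRF8. On the way they acquire the receptor for macrophage colony-stimulating factor, chemokine receptors for leaving the marrow, and the lysosomal and secreted proteins of a phagocyte. Of the genes followed here, Ccr2 and Cx3cr1 encode chemokine receptors. Ly86 encodes MD-1, the partner of the Toll-like protein CD180, and Ms4a6c a membrane protein of the MS4A family. Psap encodes the precursor of the lysosomal saposins, Lgals3 the lectin galectin-3, F13a1 the catalytic A subunit of coagulation factor XIII, and Prdx4 a peroxiredoxin of the endoplasmic reticulum.

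All levels are counts scaled to the total UMIs of the cluster and library (CPM). "Early" stands for the sum of Multi-Lin, HSCP-1 and HSCP-2. A gene was called higher or lower where it differed at least 2-fold in the same direction in both libraries on the scale log2(CPM + 1). All 8 genes were among the 8358 that averaged at least 5 CPM over the 17 clusters and 2 libraries. The share of these 8358 genes that met the same call is given beside the first count of the 8 genes in each comparison and serves for the later counts of that comparison. Because the clusters chose the genes, nothing is read from it there. The cluster names are the authors' own. On GRCm38.p6 the genes lie at chr9:124101918-124109140 (Ccr2), chr9:120048683-120068296 (Cx3cr1), chr13:37345345-37419036 (Ly86), chr19:11469353-11487182 (Ms4a6c), chr10:60277628-60302600 (Psap), chr14:47373860-47386167 (Lgals3), chr13:36867178-37050244 (F13a1) and chrX:155323918-155342272 (Prdx4). Per library, the 4 monocyte-branch clusters held 100 female and 136 male cells (MDP), 309 and 682 (MP), 450 and 602 (Mono), and 39 and 97 (cMoP). DC was small, with 11 and 22 cells.

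The cluster names were checked against marker genes. Csf1r, the receptor gene for macrophage colony-stimulating factor, stood at 98.9 and 69.7 CPM in female and male cMoP, at 53.7 and 46.9 in Mono, and at 7.0 and 5.78 in early cells. Cd74, the invariant chain of MHC class II, reached 31766 and 25818 CPM in DC and 3.80 and 11.9 in Mono. Of 7 macrophage markers, C1qb, C1qc, Mrc1 and Mertk were at 0 in cMoP of both libraries. The list summed to 14.3 and 10.9 CPM there, most of it Adgre1, the F4/80 gene, which had 10.7 and 9.14 CPM in cMoP, its highest cluster, against 0.612 and 1.0 in early cells and was below the filter. Of 10 granulocyte genes, 2 (Elane and Prtn3) were called higher in Mono than in early cells: Elane, neutrophil elastase, stood at 6171 and 6770 CPM in Mono against 1626 and 1876 in early cells. The part of granulocyte transcripts in the levels of the 8 genes was not tested.

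In cMoP all 8 genes were called higher than in early cells (3.42% of all genes were). In Mono 7 were (all but Cx3cr1, against 2.5% of all genes), in MDP 7 (all but Lgals3, against 1.11%), and in MP 4 (Ly86, Ms4a6c, F13a1 and Ccr2, against 1.47%). The median log2 fold change of the 8 genes was 3.34 in cMoP, 2.51 in Mono, 2.04 in MDP and 1.02 in MP, where that of all genes was -0.16, -0.18, -0.10 and -0.16. Taken in the order MDP, MP, Mono, cMoP, 7 genes were thus called already in MDP, and Lgals3 first in Mono. By level, cMoP was the highest of the 4 clusters for all 8 genes and MP the lowest. The order MP, MDP, Mono, cMoP held for Ly86, Ms4a6c, Lgals3, Psap and F13a1. For Ccr2, Cx3cr1 and Prdx4 the mean in MDP exceeded that in Mono.

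**Figure D1:**
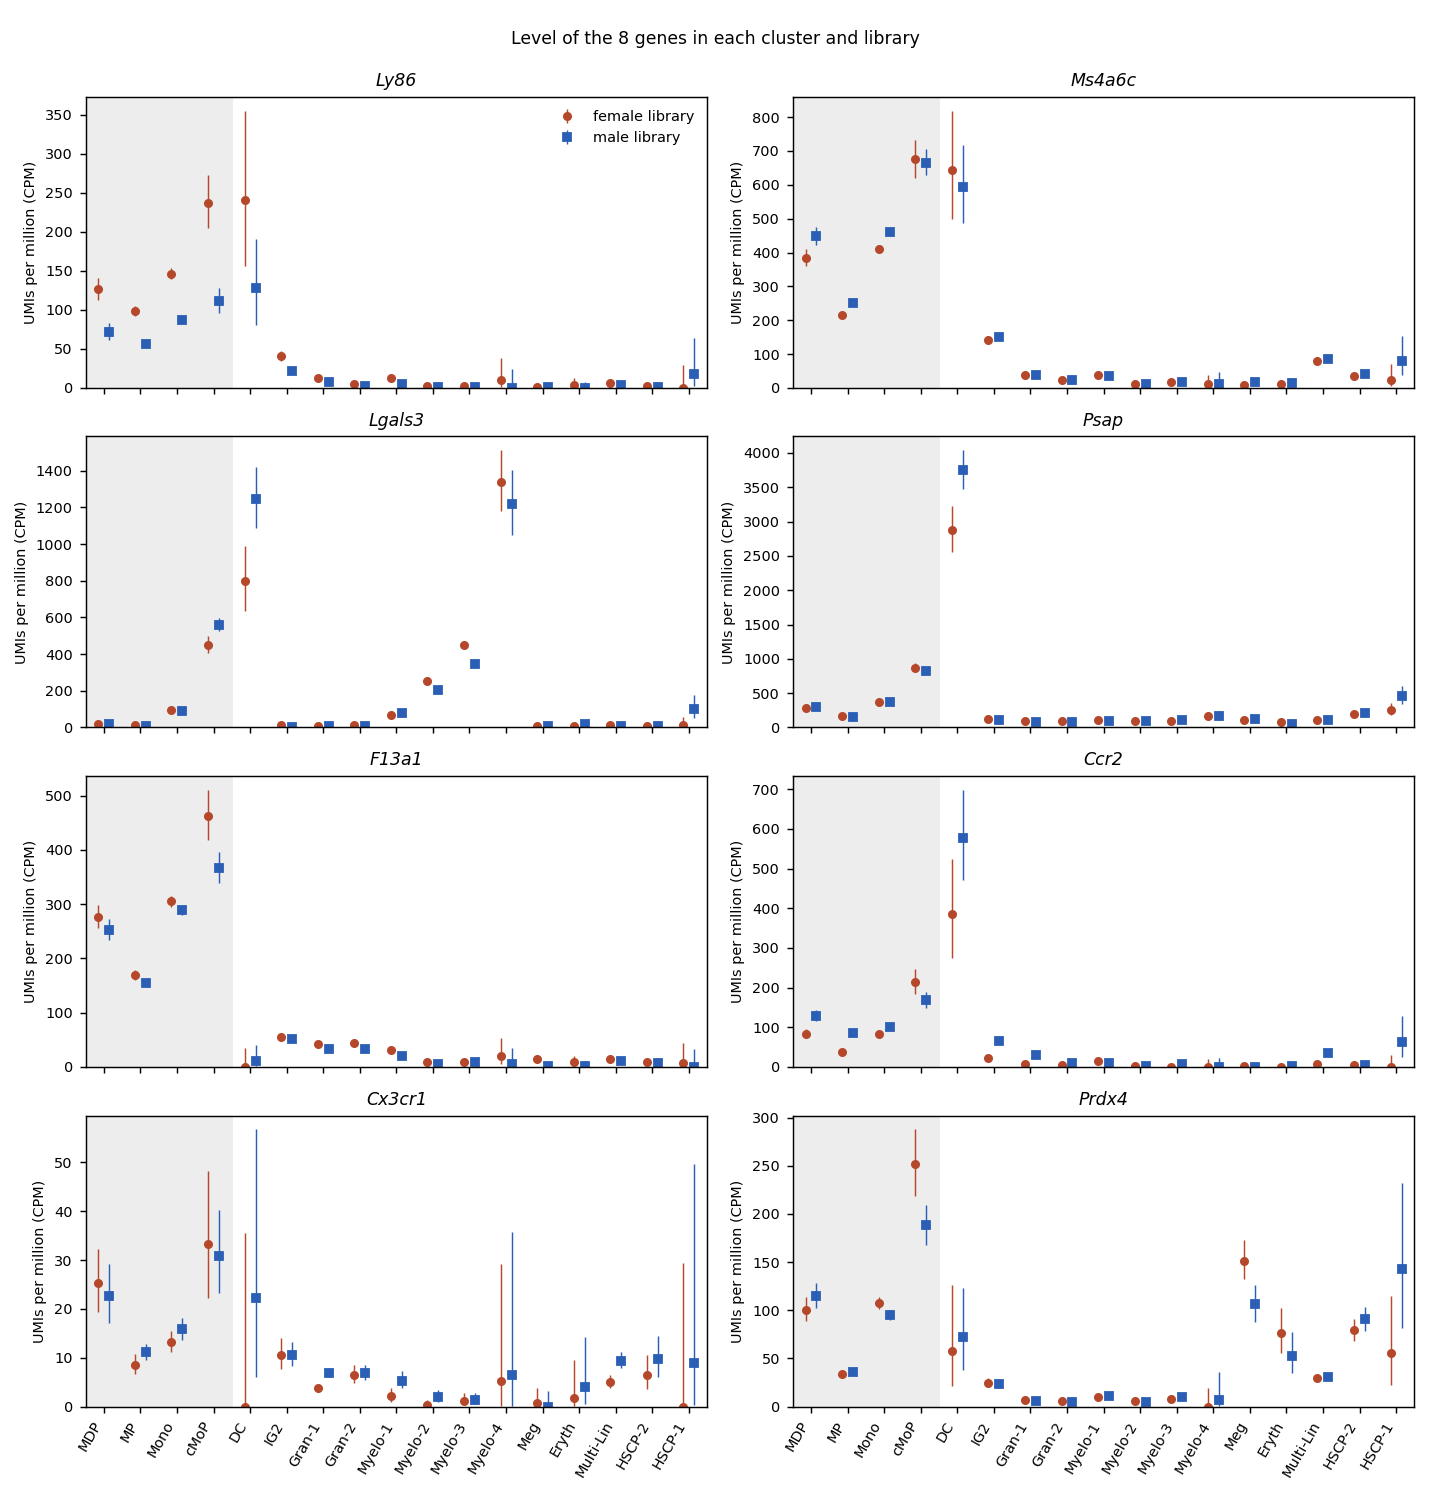
Level of each of the 8 genes in CPM (linear axes from 0) in the 17 clusters, in the female library (circles) and the male library (squares). Bars are exact Poisson 95% intervals, which cover counting error only, and the grey band marks MDP, MP, Mono and cMoP. All 8 genes are highest within the band in cMoP. Lgals3 also reaches 1337 and 1219 CPM in Myelo-4, and Psap 2876 and 3747 CPM in DC.

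The chemokine receptor gene Ccr2, whose product lets monocytes leave the marrow, had 214.5 CPM in female and 168.5 in male cMoP, and 81.9 and 101.9 in Mono. MDP had 83.4 and 128.6, and MP 37.6 and 85.5, against 7.14 and 32.1 in early cells. Female and male values lay far apart in several clusters, and only cMoP stood above both libraries of its neighbour in the order, MDP. The log2 fold change of cMoP over early cells was 4.73 for female and 2.36 for male cells.

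Cx3cr1, the receptor gene for fractalkine, was scarce throughout. It had 33.4 and 30.8 CPM in female and male cMoP, 25.2 and 22.6 in MDP, 13.1 and 15.8 in Mono and 8.52 and 11.1 in MP, against 5.16 and 9.45 in early cells. Each of the 4 clusters lay apart from the next, so that MDP stood above Mono in both libraries. These values rest on few molecules: female cMoP held 28 UMIs and male cMoP 54 (exact Poisson 95% intervals 22.2 to 48.2 and 23.2 to 40.2 CPM). With a pseudocount of 5 CPM, the Cx3cr1 call in MDP was lost (mean log2 fold change 1.25), as it was after thinning (1.35).

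Ly86 had 237.1 and 110.8 CPM in female and male cMoP, 145.9 and 87.6 in Mono, 126.5 and 72.0 in MDP and 98.1 and 56.8 in MP. Early cells had 5.71 and 3.5. The order was the same in both libraries, but the female and male values of neighbouring clusters overlapped throughout. The log2 fold change over early was between 3.68 and 5.15 in the 4 clusters. Cd180, the gene of the receptor that MD-1 binds, was scarce and was not called in cMoP or Mono. It had 6.0 and 11.4 CPM in cMoP, 5.7 and 5.9 in Mono and 4.8 and 4.1 in early cells. In cMoP the male library thus rose past 2-fold and the female did not, where 3 UMIs would be 3.57 CPM. Its peak lay in DC with 57.7 and 77.6 CPM, in 11 and 22 cells. Ly86 was highest in DC too, with 240.5 and 127.5 CPM. Of the 8 other genes tested from a list of lipopolysaccharide sensing, 1 was called higher in cMoP (Cd14, with 38.1 and 26.3 CPM against 4.5 and 3.3 in early cells). Lbp, the most abundant of them, had 60.8 and 58.3 CPM against 48.7 and 41.9.

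Ms4a6c had 675.5 and 665.4 CPM in female and male cMoP, 409.5 and 459.8 in Mono, 383.7 and 448.6 in MDP and 214.9 and 250.2 in MP, against 70.9 and 78.8 in early cells. The libraries differed little, MP lay below MDP and cMoP above Mono without overlap, and MDP and Mono overlapped. Other genes of the family went different ways. Ms4a4c had 52.4 and 56.0 CPM in cMoP against 1.6 and 1.3 in early cells, and Ms4a6b 77.4 and 86.2 against 28.2 and 31.6. Ms4a3, a gene of granulocyte-monocyte progenitors, stood at 340.7 and 401.5 CPM in cMoP, below the 655.1 and 673.0 of Mono and the 931.8 and 998.7 of MP. The sources do not state how reads shared between such close paralogs were assigned, so the split between Ms4a6 genes is uncertain.

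Psap had 869.7 and 820.2 CPM in female and male cMoP, 373.9 and 367.3 in Mono, 282.8 and 296.7 in MDP and 163.3 and 156.4 in MP, against 127.4 and 126.6 in early cells. All neighbours in this order lay apart in both libraries. Among 18 other lysosomal genes tested, 6 were called higher and none lower in cMoP. Of the most abundant, Lamp1 had 643.4 and 619.7 CPM against 167.2 and 154.2 in early cells, and Npc2, just short of 2-fold, 708.9 and 714.5 against 363.8 and 364.2. Ctss (cathepsin S) had 147.7 and 151.4 CPM there against 8.0 and 7.6 in early cells, and Grn, whose product progranulin binds prosaposin, 158.5 and 187.3 against 59.4 and 57.9. Sort1, a receptor of both, stood at 27.4 and 28.6 CPM against 14.8 and 13.6 and was not called.

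Lgals3 appeared last. It had 450.4 and 560.3 CPM in female and male cMoP and 94.6 and 90.8 in Mono, but 17.5 and 18.4 in MDP and 13.8 and 9.5 in MP, close to the 12.6 and 8.9 of early cells. All 4 clusters lay apart from their neighbours in both libraries. Lgals3 was the 1 gene of the 8 called higher in Mono than in MDP, with a mean log2 fold change of 2.31 (0.933% of all genes were called). Lgals1, the galectin-1 gene, was already abundant in MDP, with 2122 and 2451 CPM against 944.3 and 1152 in early cells. Of the 4 other genes tested from the galectin list, Lgals1 was called higher in cMoP than in early cells. The other 3 were called lower (6.58% of all genes were). They were Lgals8, Lgals9 (35.7 and 49.7 CPM against 167.8 and 168.3) and Lgals3bp, which encodes a galectin-3 binding protein and not a galectin.

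F13a1 had 462.3 and 366.7 CPM in female and male cMoP, 305.6 and 289.0 in Mono, 276.3 and 252.6 in MDP and 169.5 and 154.4 in MP, against 14.6 and 11.3 in early cells. Neighbours lay apart in both libraries, and the mean log2 fold change over early was 4.90 in cMoP. F13b, which encodes the carrier subunit of plasma factor XIII, was at 0 in all of these clusters. F10, coagulation factor X, was the other coagulation gene called in cMoP, with 64.3 and 66.3 CPM against 5.4 and 3.8. The most abundant of that list were not called: Vkorc1 had 61.9 and 66.8 CPM against 102.8 and 108.9, and Tfpi 31.0 and 26.8 against 31.5 and 35.5.

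Prdx4 had 251.4 and 187.9 CPM in female and male cMoP, 107.2 and 94.7 in Mono and 100.5 and 114.8 in MDP, but 33.3 and 36.2 in MP, below the 38.0 and 39.5 of early cells. Mono and MDP overlapped, and MP lay apart from both. It was the 1 gene of the 8 called lower in MP than in MDP (0.778% of all genes were). None was called higher there, against 0.646% of all genes. No other peroxiredoxin gene was called in cMoP against early cells. Prdx5 did pass 2-fold over early cells in Mono, with 533.4 and 505.9 CPM, and stood at 652.7 and 659.4 in Gran-1. In cMoP Prdx5 came closest, with 494.4 and 604.8 CPM against 264.2 and 244.5 in early cells, or 0.90 and 1.30 on the log2 scale. Prdx1 had 859.0 and 940.7 CPM against 629.6 and 714.4, and Prdx2 (259.7 and 262.7 against 357.3 and 385.4) and Prdx6 (275.2 and 296.4 against 485.6 and 456.9) were lower in cMoP in both libraries. Of 10 other genes of this list tested, 1 (Txndc5, an oxidoreductase of the endoplasmic reticulum) was called higher in cMoP.

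Of the 8 genes, 2 separated cMoP from the clusters before it. Lgals3 and Psap were called higher in cMoP than in Mono, with mean log2 fold changes of 2.43 and 1.19 (0.646% of all genes were called), and higher than in MDP, with 4.73 and 1.54 (1.89%). The other 6 had higher values in cMoP than in Mono in both libraries, by 0.47 to 1.10 on the log2 scale. Without the male library the counts were 5 against Mono and 4 against MDP, since Ccr2, Cx3cr1 and Prdx4 crossed 2-fold against Mono in the female library alone. Among the regulators, Klf4 followed this late pattern, with 190.6 and 192.5 CPM in cMoP against 84.9 and 79.4 in Mono. Irf5 did too, with 73.9 and 64.0 CPM against 28.0 and 27.6. Both were also high in DC, Klf4 at 230.9 and 199.5 CPM and Irf5 at 269.4 and 360.3. Irf8 stood at 754.2 and 727.1 CPM in cMoP against 555.0 and 602.1 in Mono.

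**Figure D2:**
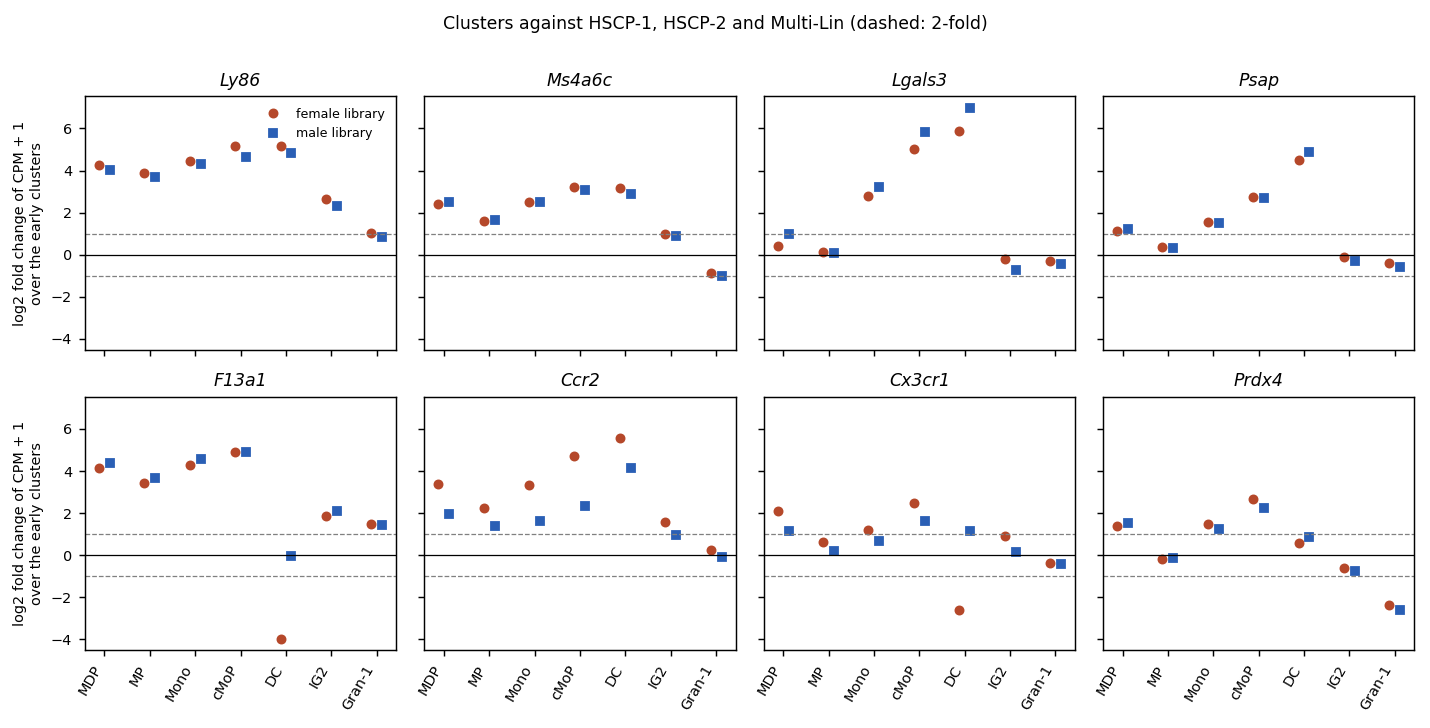
Log2 fold change of CPM + 1 in MDP, MP, Mono, cMoP, DC, IG2 and Gran-1 over early cells, for each of the 8 genes, in the female (circles) and male (squares) library. Dashed lines mark 2-fold. The points of F13a1 and Cx3cr1 in DC rest on 0 to 4 UMIs and depend on the pseudocount. Prdx4 lies below the lower line in Gran-1 at -2.38 and -2.60, and Ccr2 is the gene whose libraries lie farthest apart in cMoP.

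Beyond the 8, other genes fixed in lists behaved unevenly in cMoP against early cells. Of 17 other monocyte genes tested, 15 were called higher and none lower, Csf1r among them. Ly6c2 had 3753 and 4473 CPM against 228.1 and 211.7, and Tyrobp 1557 and 1824 against 311.9 and 339.7. Of 10 regulators tested, 4 were higher (Irf8, Klf4, Irf5 and Cebpb) and 2 lower (Egr1 and Runx3), with Spi1, the PU.1 gene, at 386.0 and 366.7 CPM against 225.3 and 207.2. Of 8 chemokine genes 3 were higher and 1 lower, while the most abundant, Ccl9 (321.7 and 296.4 CPM against 407.4 and 434.7) and Ccl3 (73.9 and 55.4 against 38.7 and 23.5), were not called. Of 4 MS4A genes 2 were higher and 1 lower, and of 3 coagulation genes 1 was higher. Of 10 granulocyte genes none was higher and 1 lower (Cebpe), with Mpo, myeloperoxidase, at 3665 and 4274 CPM against 3824 and 4329. Of 9 dendritic genes none was higher and 3 were lower, H2-Ab1 among them (4.77 and 6.28 CPM against 40.8 and 44.7), with Tcf4 at 20.2 and 14.3 against 36.8 and 32.6. Cd209a, Batf3 and Xcr1 of that list passed the filter through DC and were near 0 in both cMoP and early cells, so they add little to that count. Batf3 had 2.38 and 0.571 CPM in cMoP and 0 and 0.389 in early cells, against 221.3 and 188.4 in DC. The 1 macrophage gene tested, Vcam1, was not called. All 6 stem genes and all 5 erythroid and megakaryocyte genes were lower, such as Cd34 with 78.6 and 60.5 CPM against 304.0 and 279.8. The lists were drawn up with earlier results of these data known.

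The patterns of the 8 genes over all 17 clusters fell into several kinds. Likeness was measured as the Pearson correlation of log2(CPM + 1) over the 17 clusters, of which the lower value of the 2 libraries is given. The clusters share library and depth, and no p belongs to these values. Ly86 and Ccr2 each had the other and Ms4a6c among their 3 nearest genes, and Ms4a6c had Ccr2, at 0.91 for Ly86 with Ms4a6c, 0.93 for Ccr2 with Ms4a6c and 0.92 for Ccr2 with Ly86. Irf8 was the gene most like Ms4a6c of all 8358 (0.96), and it was second for both Ly86 (0.91) and Ccr2 (0.92). Lgals3 was most like S100a6 (0.94), Cd52 (0.90) and Anxa2 (0.89). Psap was most like Sept9 (0.93), Ahnak (0.92) and Cst3 (0.92), and F13a1 most like Tctex1d1 (0.90), Csf1r (0.89) and Nrg1 (0.88). Prdx4 was most like S100a10 (0.90), Tmem109 (0.88) and Snx1 (0.88). Cx3cr1 had no near match, with B3gnt8 at 0.76, Soat1 and Lgals1 at 0.73. Lgals3 with Prdx4 stood at -0.32 (female) and -0.02 (male), and F13a1 with Lgals3 at -0.14 and -0.06, the lowest pairs among the 8.

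The start regions of genes from these different patterns are shown so that their base composition and the short motifs of monocyte factors can be read beside the levels. All 8 genes were matched in a RefSeq promoter table of build GRCm38.p6, the same assembly as mm10. Each line gives the 250 bases before a start, 5' to 3' on the gene's strand. Capitals mark AGGAAGT, a core bound by PU.1 and other ETS factors, or GGGCGG, the GC box, on either strand. Ms4a6c lies on the plus strand (chr19:11469118-11469367) and F13a1 on the minus strand (second of 2 starts, chr13:37049214-37049463). Lgals3 is on the plus strand (chr14:47373610-47373859) and Prdx4 on the minus strand (chrX:155338461-155338710). Ms4a6c was most like Irf8, F13a1 was near Csf1r, Lgals3 was the late gene, and Prdx4 was also high in Meg and HSCP-2.
Ms4a6c: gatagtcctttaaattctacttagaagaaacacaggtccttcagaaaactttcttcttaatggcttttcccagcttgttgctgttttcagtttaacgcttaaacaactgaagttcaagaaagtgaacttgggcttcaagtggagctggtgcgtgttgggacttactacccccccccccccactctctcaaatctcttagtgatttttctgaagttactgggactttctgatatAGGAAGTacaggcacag
F13a1: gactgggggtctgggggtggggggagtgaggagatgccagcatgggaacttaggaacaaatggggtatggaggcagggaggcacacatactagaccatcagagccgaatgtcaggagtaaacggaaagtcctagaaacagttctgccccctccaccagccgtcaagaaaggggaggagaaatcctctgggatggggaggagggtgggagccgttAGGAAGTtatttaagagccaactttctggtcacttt
Lgals3: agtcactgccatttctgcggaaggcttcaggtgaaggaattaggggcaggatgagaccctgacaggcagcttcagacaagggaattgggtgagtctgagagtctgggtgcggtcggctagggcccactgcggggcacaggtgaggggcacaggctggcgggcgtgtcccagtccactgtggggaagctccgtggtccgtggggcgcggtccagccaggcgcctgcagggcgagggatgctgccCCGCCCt
Prdx4: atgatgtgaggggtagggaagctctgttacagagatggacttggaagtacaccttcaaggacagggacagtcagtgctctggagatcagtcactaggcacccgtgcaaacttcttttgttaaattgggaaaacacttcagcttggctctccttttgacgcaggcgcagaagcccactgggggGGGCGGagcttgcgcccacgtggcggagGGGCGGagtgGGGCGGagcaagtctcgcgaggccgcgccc

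AGGAAGT was found in Ms4a6c with its first base at -17 from the start. In F13a1 it was at -36 and again at 16 of the second start, while the first start of F13a1 held none of the motifs searched. AGGAAGT was in none of the other 6 genes. Of all 32851 promoter windows, which run from 250 bases before to 50 bases after a start, 9.35% held it on either strand. GGGCGG was found 3 times in Prdx4 (first bases at -68, -40 and -30), at -7 and 5 in Lgals3 and at 5 in Psap, and in 35.7% of all windows. The ETS-IRF composite element (2.72% of windows), the IRF-IRF element (3.44%), TTGCNNAA of C/EBP factors (10.8%) and TATAAA (13.6%) were in none of the 8 genes, and TGANTCA of AP-1 (7.81%) only in Psap, at -18. No match says only that these letters are not in this window. The G and C content of the 250 bases was 37.2% in Ccr2 and 42.4% in Ms4a6c, and 58.8% in Prdx4, 58.8% in the first start of Psap and 66.0% in Lgals3, with a median of 52.4% over all windows. The letters were read as a description, with no site or cause drawn from them.

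Several of the 8 genes were also high outside the 4 monocyte-branch clusters. In DC, 5 were called higher than in early cells (Ly86, Ms4a6c, Lgals3, Psap and Ccr2, against 6.15% of all genes). Against Mono, 3 were higher in DC (Lgals3, Psap and Ccr2, against 7.09%) and F13a1 was lower (against 13.2%). Psap stood at 2876 and 3747 CPM in female and male DC against 373.9 and 367.3 in Mono, and Ccr2 at 384.8 and 576.4 against 81.9 and 101.9. F13a1 had no UMI in female DC, where 3 UMIs would be 28.9 CPM, and 2 UMIs (11.1 CPM) in male DC, against 305.6 and 289.0 CPM in Mono. Cx3cr1 had no UMI in female and 4 in male DC, too few to place its level.

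Lgals3 was highest outside the branch, in Myelo-4 with 1337 and 1219 CPM. It had 450.3 and 346.0 CPM in Myelo-3, 253.2 and 203.4 in Myelo-2, 69.0 and 77.5 in Myelo-1 and 10.2 and 6.4 in Gran-1. Lgals3 was thus as high in Myelo-3 as in cMoP in the female library, and higher in Myelo-4 than in cMoP in both. Prdx4 was second highest in Meg, with 151.5 and 105.9 CPM, and had 78.9 and 90.4 in HSCP-2. Of all 17 clusters, cMoP had the highest mean for Ms4a6c, F13a1, Cx3cr1 and Prdx4, DC for Ly86, Psap and Ccr2, and Myelo-4 for Lgals3. As monocyte identity genes the 8 were therefore not alike. For Ly86 and Ms4a6c, DC and cMoP could not be ranked. The Poisson intervals of DC held the cMoP value in both libraries, such as 155.6 to 355.0 CPM for Ly86 in female DC against 237.1 in cMoP.

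In Gran-1, the largest cluster with 832 female and 1541 male cells, F13a1 was called higher than in early cells (42.9 and 32.7 CPM against 14.6 and 11.3, where 2.07% of all genes were called). Prdx4 was called lower (6.5 and 5.7 against 38.0 and 39.5, where 6.9% were). Without the male library Ly86 also passed, at a log2 fold change of 1.05 in the female library, so that 2 genes were higher. IG2 stood between the branches. There Ly86 (40.8 and 21.4 CPM) and F13a1 (55.5 and 52.4) were called higher than in early cells, against 0.467% of all genes. With sums scaled by TMM factors, 4 genes were called.

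Against Gran-1, 4 of the 8 genes were called higher in IG2 (0.993% of all genes were called). Ms4a6c had 142.7 and 149.3 CPM in female and male IG2 against 39.1 and 39.2 in Gran-1, and Prdx4 24.7 and 23.2 against 6.5 and 5.7. Ly86 had 40.8 and 21.4 against 12.9 and 7.2, and Ccr2 23.3 and 64.4 against 8.5 and 30.7. Irf8 was also higher, at 144.1 and 138.3 CPM against 52.3 and 43.7. Of 10 granulocyte genes none was called higher and 3 lower (Elane, Gfi1 and Fcnb, where 1.05% of all genes were lower), Gfi1 with 33.3 and 32.3 CPM against 70.8 and 69.4. Lgals3 did not take part, at 11 and 5.05 CPM against 10.2 and 6.38. Of the 4 genes called, only Ccr2 had values that overlapped between the clusters. Requiring the lower library of IG2 to exceed the higher of Gran-1 by 2-fold left 2 genes, Ms4a6c and Prdx4. The Ccr2 call was also lost under TMM scaling and with a pseudocount of 5 CPM.

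Single cells were thinned to 5000 UMIs so that depth did not set how many carried a transcript (19 female and 118 male cells with fewer were left out of the whole series). In Mono, Ms4a6c was found in 85.8% (female) and 88.6% (male) of cells (99.8% and 99.5% unthinned, median depth 24367 and 20305 UMIs). In Eryth, cells that should lack it, the share was 4.88% and 12.2% (12.2% and 16.3% unthinned, median depth 12993 and 10904). Ms4a6c was thus found in most Mono cells, far above that background. Cx3cr1 was found in 5.78% and 7.68% of Mono cells (25.1% and 23.4% unthinned), against 0 of 41 female and 1 of 41 male Eryth cells, where 0 allows a share of up to 7.32%. In Meg it was found in 0 of 85 cells of each library, which allows up to 3.53%. Both of these limits are approximate, as 3 divided by the number of cells, and lie below the exact ones. The exact binomial 95% intervals were 3.81% to 8.35% and 5.68% to 10.1% in Mono, and reached 4.25% in Meg, so that at this depth the female Mono share was not clear of either.

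Lgals3 was found in 79.5% of female and 85.6% of male cMoP cells (exact binomial 95% intervals 63.5% to 90.7% and 77.0% to 91.9%) and in 27.8% and 29.2% of Mono cells. It was found in 4 of 100 female and 13 of 136 male MDP cells, and in 2.44% and 4.88% of Eryth cells. Unthinned, the shares were 94.9% and 97.9% in cMoP, 65.8% and 58.1% in Mono, 25% and 20.6% in MDP, and 12.2% and 16.3% in Eryth. Psap was found in 17.1% and 26.8% of Eryth cells and 43.5% and 48.2% of Meg cells, and Prdx4 in 29.3% and 19.5% and in 45.9% and 50.6%, so that both were also found outside the branch. The intervals cover counting error only.

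**Figure D3:**
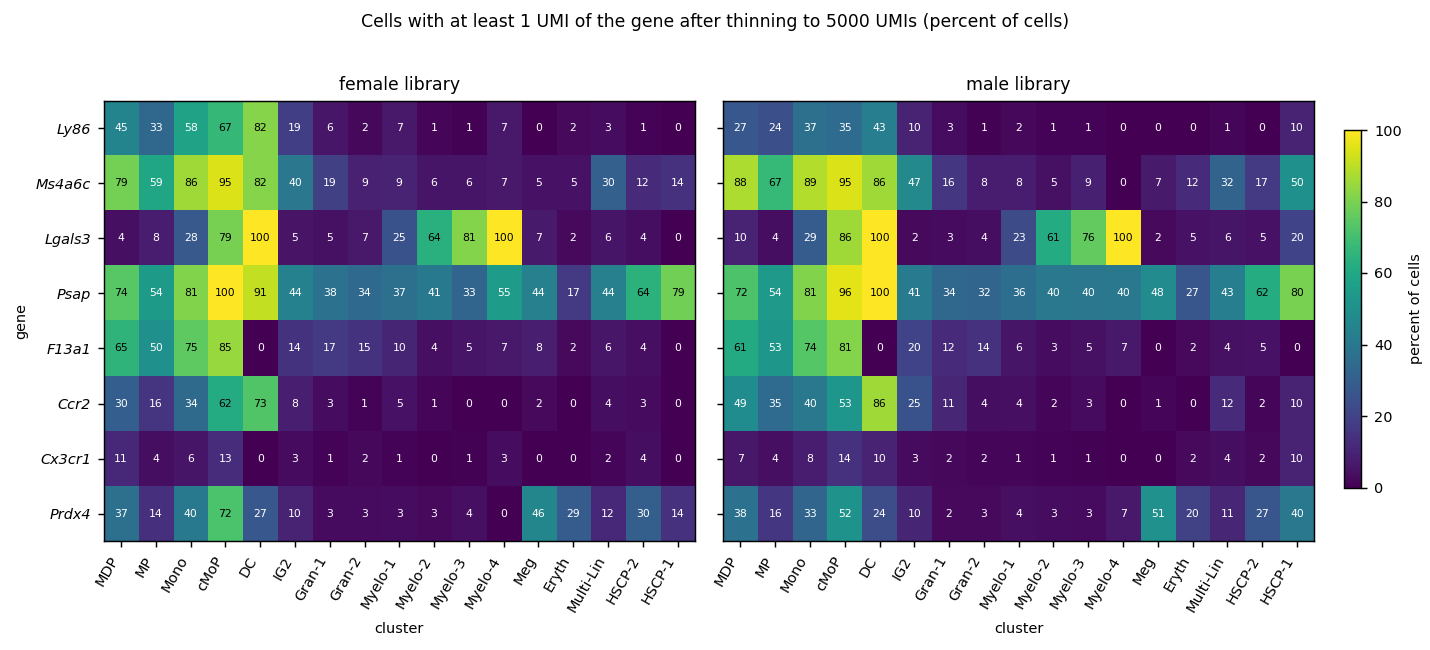
Percent of cells with at least 1 UMI of each gene, by cluster, after thinning every cell to 5000 UMIs, in the female library (left) and the male library (right). Ms4a6c and Psap fill most MDP, Mono and cMoP cells, Lgals3 is in 27.8% and 29.2% of Mono and 79.5% and 85.6% of cMoP cells, and Prdx4 also lies in 45.9% and 50.6% of Meg cells.

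The detection shares add up to a number of the 8 genes per cell, which follows from the same counts that chose them. At 5000 UMIs a female cMoP cell held on average 5.72 of the 8 genes and a male one 5.11, and a Mono cell 4.08 and 3.90. The mean was 3.45 and 3.5 in MDP, 2.38 and 2.57 in MP, 1.43 and 1.59 in IG2 and 0.915 and 0.837 in Gran-1, with 0.585 and 0.683 in Eryth. At least 4 of the 8 were held by 97.4% and 95.9% of cMoP cells, 65.3% and 62.3% of Mono cells and 2.41% and 5.17% of IG2 cells. Unthinned, the mean in Mono was 6.45 and 6.14, so the number per cell depends on depth.

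Within Gran-1, cells holding 2 or 3 of the 8 genes (172 female and 275 male) were set beside those holding 0 or 1 (652 and 1244). The 7 female and 15 male cells with 4 or more were left aside. Irf8 stood at 90.1 and 98.7 CPM in the cells with 2 or 3 and at 40.1 and 28.8 in those with 0 or 1. Gfi1, the granulocyte regulator that represses monocyte genes, stood at 58.4 and 55.8 CPM against 74.7 and 73.1. Elane was nearly the same, at 12980 and 15065 CPM against 13316 and 15252. In IG2 Irf8 was 166.7 and 172.1 CPM in cells with 2 or 3 (75 and 144 cells) against 122.7 and 95.2 in cells with 0 or 1 (87 and 168), and Gfi1 27.8 and 27.2 against 38.7 and 37.1. Irf8 was thus higher and Gfi1 lower in both libraries and both clusters where more of the 8 genes were found. No test was made, since cells of 1 library are not replicates. Doublets were not searched for, and their part was not tested. Median depth was 28755 and 23576 UMIs in the Gran-1 cells with 2 or 3, against 27482 and 22098.

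Surface protein was not used to choose the genes. Cells were parted at the median count of an antibody within their library and cluster, and the genes were compared between cells above the median and cells at or below it. In MDP all 8 genes had higher CPM above the median of Ly-6C in both libraries, against 26.0% of all genes. Prdx4 had 124.2 and 143.9 CPM above against 70.7 and 81.4 below, and F13a1 349.3 and 307.8 against 184.5 and 189.2. Ly6c2, which encodes a Ly-6C antigen, had 1252 and 1481 CPM against 521.4 and 546.2. Irf8 differed less, at 540.1 and 572.0 against 488.3 and 524.8. Cells above the median were also deeper, with median UMIs of 25012 and 20216 against 21797 and 17688. The part of depth in the difference was not tested. When Ly-6C was taken as its share of the 4 antibody counts of the cell, 8 of 8 genes were again higher (24.5% of all genes).

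In Gran-1 all 8 genes were likewise higher above the Ly-6C median (27.5% of all genes were), and 7 of 8 with the share of antibody counts (24.2%). Ly86 had 19.1 and 11 CPM above against 5.65 and 3.0 below, F13a1 63.9 and 48.6 against 18.9 and 15.4, and Irf8 74.4 and 62.6 against 26.9 and 22.9. The log2 ratio was 1.60 and 1.58 for Ly86 and 1.71 and 1.60 for F13a1, beside 0.14 and 0.25 for Psap. In MP 3 of 8 genes were higher above the median (26.0% of all genes), in Mono 2 (29.0%), in cMoP 2 (25.0%) and in IG2 4 (23.8%). Lgals3 and Psap were among them in MP, Mono and cMoP, but with the share of antibody counts 2 genes were higher in cMoP (Ly86 and Lgals3, 23.3% of all genes) and 4 in Mono (26.2%). Lgals3 had 134.2 and 116.5 CPM above against 52.1 and 62.6 below in Mono, and 584.8 and 710.5 against 321.7 and 391.1 in cMoP. Within those clusters Lgals3 therefore still went with Ly-6C, while Ly86 and Ms4a6c had log2 ratios from -0.10 to 0.05 in Mono.

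**Figure D4:**
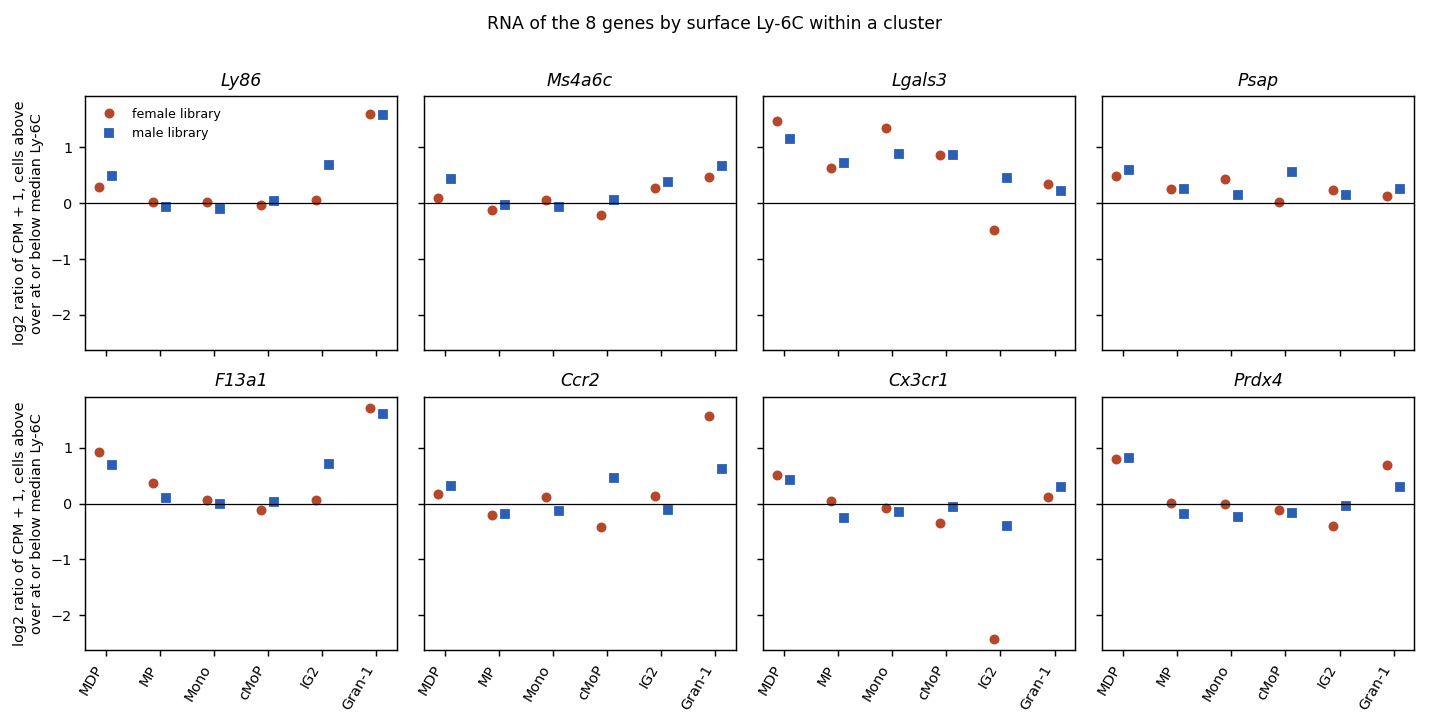
Log2 ratio of CPM + 1 in cells above the median Ly-6C antibody count of their library and cluster over cells at or below it, for each of the 8 genes in 6 clusters, in the female (circles) and male (squares) library. All 8 genes lie above 0 in both libraries in MDP and in Gran-1, with Ly86 at 1.60 and 1.58 in Gran-1. Lgals3 lies above 0 from MDP to cMoP.

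For CD117, the stem cell factor receptor on which the cells were enriched, the direction differed by cluster. In MDP 7 of 8 genes were lower above its median in both libraries (24.6% of all genes were), and Ccr2 was the exception. In Mono 6 of 8 were lower (27.6%). With CD117 as its share of the antibody counts, 7 of 8 were again lower in MDP (24.4%), Ccr2 then among them and Cx3cr1 not, and 4 of 8 were lower in Mono (28.6%). In MP and cMoP 4 of 8 were lower by count (23.8% and 24.7% of all genes). In IG2 2 were lower and 4 higher (24.1% and 28.4%), and in Gran-1 2 were lower and 3 higher (24.9% and 37.8%), although by share all 8 were lower in Gran-1 (25.2%). In Mono, Lgals3 had 51.0 and 51.8 CPM above the CD117 median against 144.3 and 135.7 below, or log2 ratios of -1.48 and -1.37. Within Mono, Lgals3 was thus higher in cells with more Ly-6C and, separately, in cells with less CD117.

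The other antibodies, to the myeloid integrin chain CD11b and the granulocyte antigen Ly-6G, were read in the same way, by direction only. In Mono each gave 6 of 8 genes lower above its median (30.5% of all genes for CD11b and 22.7% for Ly-6G), but with Lgals3 the 1 gene higher. In MDP CD11b gave 4 lower (22.0%) and Ly-6G 5 (23.0%). For Ly-6G, the log2 ratios of Lgals3 in Mono were only 0.03 and 0.08. Those of the 6 lower genes in Mono were small too, from -0.02 to -0.18 apart from Cx3cr1 in the male library (-0.39). By share of the antibody counts, all 8 were lower in MDP above the median of CD11b (22.6%) and of Ly-6G (21.9%). In Mono the share gave 4 of 8 lower for CD11b (24.6%) and for Ly-6G (27.0%), and Lgals3 was then among the lower genes for both. The 4 shares of a cell add up to the whole, so that these counts and that of Ly-6C by share are not separate observations.

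The female and the male library differed in some of these genes more than in most others. Ly86 had 41.2 CPM in the whole female library against 23.8 in the male (exact Poisson 95% intervals 39.9 to 42.5 and 22.9 to 24.6), and it was higher in the female library in 16 of 17 clusters. By the log2 ratio of CPM + 1 over all cells, 0.77, Ly86 ranked 16 of 8358 genes. Ms4a6c, of nearly the same cluster pattern, had 123.0 and 134.8 CPM. With 1 library of each, sex, mouse and preparation cannot be told apart. Ly86 and F13a1 were the 2 genes of the 8 higher in the female library in each of the 11 clusters compared (2.18% of all genes were). Both lie on chromosome 13, 295101 bases apart. Rreb1, on the other side of Ly86, had 12.8 and 9.08 CPM and was higher in the female library in 10 of 11 clusters, while Fars2, beyond F13a1, had 21.4 and 21.4 CPM.

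Ccr2 went the other way, with 24.3 CPM in the female library against 46.1 in the male. It ranked 9 of 8358 genes by how much lower it was in the female library, and Cx3cr1, with 6.57 against 8.99 CPM, ranked 21. None of the 8 was higher in the male library in each of the 11 clusters (3.52% of all genes were). The Ccr2 difference was uneven over the clusters. In Multi-Lin Ccr2 had 7.76 CPM in the female library against 36.1 in the male, and in Gran-1 8.53 against 30.7. In Mono it had 81.9 against 101.9, and in cMoP 214.5 against 168.5, the other way round. The libraries were thus closer in Mono and cMoP than in Multi-Lin and Gran-1.

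Ccr1, the neighbouring receptor gene 133226 bases from Ccr2 on chromosome 9, differed more. It had 3.15 CPM in the female library against 22.7 in the male, or 288 against 2842 UMIs, and ranked 4 of 8358 genes. In Gran-1 it had 0.467 against 22.3 CPM, in MP 0.673 against 17.7 and in Mono 1.68 against 17, and it was lower in the female library in 11 of 11 clusters. Other genes near Ccr2 did not share this: Lztfl1 had 15.8 against 14.0 CPM, and Ppp2r3d 12.8 against 9.94. The 3 receptor genes Ccr1, Ccr2 and Cx3cr1 all lie on chromosome 9, and all were lower in the female library as a whole. Cx3cr1 was uneven by cluster. It was lower in the female library in MP (8.52 against 11.1 CPM) and Mono (13.1 against 15.8). In MDP (25.2 against 22.6) and cMoP (33.4 against 30.8) it was slightly higher there. 

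**Figure D5:**
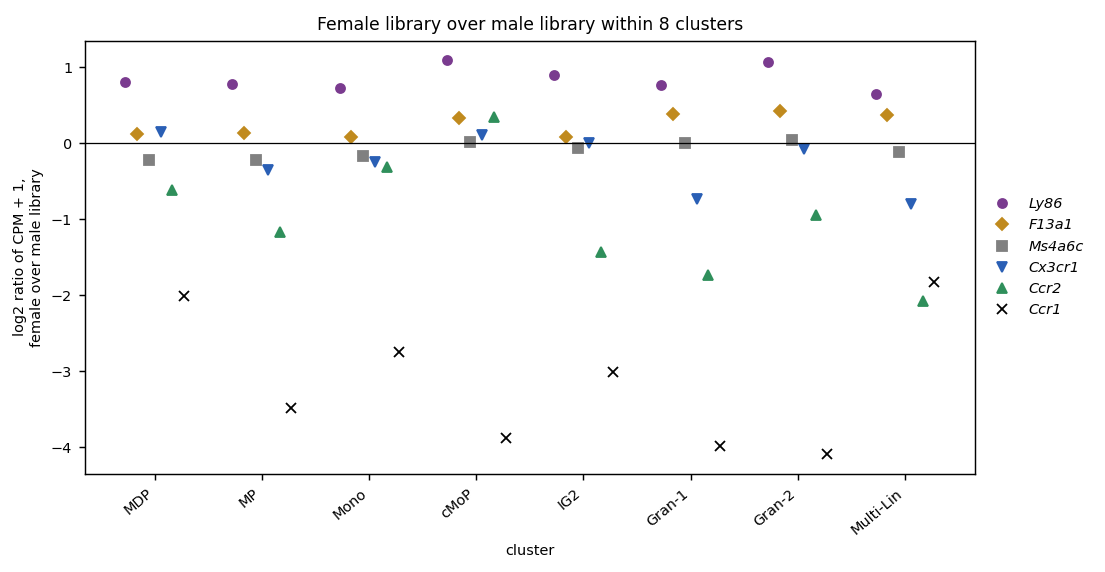
Log2 ratio of CPM + 1 in the female over the male library within 8 clusters, for 5 of the 8 genes and the neighbouring receptor gene Ccr1, chosen for the plot after their values were seen. Ly86 lies above 0 in each cluster shown, Ms4a6c stays near 0, Ccr2 lies below 0 except in cMoP, and Ccr1 lies lowest in all but Multi-Lin.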

How the data were processed

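CITE-seq measured transcripts and 4 surface antibodies in wild-type mouse marrow progenitors. The authors deposited raw UMI counts per gene and cell, a cluster name per cell, and antibody counts per cell. Cell Ranger 2.1.0 and mm10 are listed in the submitters' processing notes. No source states the annotation, cell calling, clustering or doublet treatment. Cell names end in a tag that gave their library. All 11132 cells were kept (lowest depth 4373 UMIs), 45 barcodes occurred in both libraries, and no doublet caller was run.

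Symbols were found for 28339 of 28692 gene IDs. Counts were summed per library and cluster, because cells are not replicates, and expressed as CPM of all UMIs, with exact Poisson 95% intervals. Folds used log2(CPM + 1) and genes averaging at least 5 CPM. The calling step was tested on simulated data. With 2 libraries and clusters made from the same RNA, no test was made between clusters. Shares of cells used thinning to 5000 UMIs. The antibody split used the deposited counts, or their share in the cell. The rule for named genes took the 8 genes, partners, regulators, the 2 most abundant members of 14 lists, and the 3 genes of most like pattern. The stem and erythroid lists are given by 1 example. Other list genes that were called were named after their values were seen. So were Cd74, C1qb, C1qc, Mrc1, Mertk, Cd209a, Batf3 and Xcr1. The 8 genes and the lists were chosen with earlier results of these data known. The neighbouring genes and the ranking of library differences were added after the values were seen. Alternatives covered scaling (edgeR 4.0.16 TMM factors in R 4.3.3), pseudocount, filter, fold, depth, weighting of cells and left-out libraries. The work used matplotlib 3.10.9, scipy 1.17.1, pandas 2.3.3 and numpy 2.4.6 under Python 3.11.15. Coordinates and sequences are from RefSeq, GRCm38.p6.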

Additional observations from a re-analysis of the deposited data

Results flagged for a closer look

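In 5 comparisons of a gene between clusters, the female and the male library moved in opposite directions on the log2(CPM + 1) scale. With 1 library of each sex, the difference between them was not tested. Ccr2 in Gran-1 over early cells was 0.23 (female) and -0.0623 (male). Lgals3 in IG2 over Gran-1 was 0.10 and -0.29, and Prdx4 in Mono over MDP was 0.0919 and -0.28. Cx3cr1 in DC was -3.82 and 0.46 over Mono, and -2.62 and 1.15 over early cells. In DC it rested on no UMI in the female and 4 UMIs in the male library, so the negative values depend on the pseudocount and are no bound.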

How the results depend on the processing

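Of 1443 log2 fold changes recomputed under the alternatives, 40 were newly called in their main direction and 8 were no longer called. The other 1395 were counted as unchanged. Of the 40, 16 came from the setting with a fold of 1.5 and passed that lower limit, not 2-fold. For values not called in the main setting, a change of sign was not counted. No called value changed sign. Those that no longer passed were Ccr2 in IG2 over Gran-1 (TMM scaling, pseudocount 5 CPM, libraries not paired), Cx3cr1 in MDP over early cells (pseudocount 5 CPM, mean of single cells, thinning), and Ccr2 in MP over early cells and Ly86 in IG2 over Gran-1 (libraries not paired). Counts of genes called higher moved by over 1.5 times as follows. With TMM scaling, IG2 over early cells gave 4 and Gran-1 over early cells 2. At a fold of 1.5, IG2 over early cells gave 4, Gran-1 over early cells 2, cMoP over MDP 4 and cMoP over Mono 5. Thinned to 5000 UMIs, Gran-1 over early cells gave 2. With the lowest library of IG2 set against the highest of Gran-1, 2 remained of 4. Leaving out 1 library gave 1 to 2 genes for Gran-1 over early cells, 2 to 4 for cMoP over MDP and 2 to 5 for cMoP over Mono, the higher count each time without the male library. Without thinning, a Mono cell held 6.30 of the 8 genes on average over both libraries. Under TMM scaling the median of all genes shifted by up to 0.24 (log2, Gran-1 over early cells) and by 0.21 in Mono and MP over early cells. DC, with 103948 female and 180420 male UMIs, limits every statement on it. Each fold was taken within a library, so that the libraries were paired throughout.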
